A study of Homo sapiens with 16 samples.

Results

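The genes described here are 10 members of the SOX family of transcription factors: SOX1, SOX2, SOX3, SOX4, SOX5, SOX9, SOX10, SOX11, SOX12 and SOX21. They were chosen by name from the 57736 genes of the count table, for their use as marks of progenitors (SOX1, SOX2, SOX3), of neurons (SOX4, SOX11) and of glia or neural crest (SOX5, SOX9, SOX10), with the relatives SOX12 and SOX21. The rule uses no measured value, although earlier results of these data were known when the members were chosen. All 10 had a row in the table, and 8 passed the filter on low counts, while SOX1 and SOX21 did not and could not be tested. The RNA came from H9 cells, an established line of human embryonic stem cells, which were taken through neural induction by dual SMAD inhibition (LDN-193189 against BMP signalling and SB-431542 against TGF-β receptors) and on towards cortical neurons. Cells were collected undifferentiated (D0) and on D12, D30 and D70. At each stage 2 libraries came from cells kept in ThiametG (TMG, 40 µM) and 2 from cells kept in its solvent DMSO, the control, which made 8 groups and 16 libraries. TMG blocks O-GlcNAcase, the enzyme that takes the sugar O-GlcNAc off proteins, so that the sugar accumulates. The model is 1 cell line, and each library is bulk RNA from a whole culture that can hold several cell types. The study calls the 2 libraries of a group biological replicates, whereas the labels do not say what separates them, so a p-value here measures the spread between these libraries.

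SOX proteins bind DNA through a high mobility group (HMG) box related to that of SRY and usually act with a partner factor. SOX1, SOX2 and SOX3, the SOXB1 group, keep neural progenitors from differentiating, and SOX2 also works with OCT4 (POU5F1) in undifferentiated stem cells. SOX21 belongs to the related SOXB2 group, which opposes SOXB1. SOX4, SOX11 and SOX12 form the SOXC group, which switches on neuronal genes in cells that have left the cycle. SOX9 is needed for neural stem cells, glia and cartilage, SOX10 for neural crest, Schwann cells, melanocytes and oligodendrocytes, and SOX5 acts with both in cartilage and crest and also marks deep-layer cortical neurons.

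RefSeq promoters of GRCh38.p14, from 250 bases before to 50 after the annotated start, were found for 7 of the 10 genes (SOX1, SOX2, SOX3, SOX4, SOX5, SOX12 and SOX21). The 4 printed here belong to the progenitor genes, which had 3 different courses (SOX1 near 0, SOX2 highest on D0, SOX3 highest on D12), and to SOX4, whose D12 libraries lay below all others. Each is read 5′ to 3′ on the strand of the gene, and capitals mark the letters CCAAT or, for the other strand, ATTGG.
SOX1: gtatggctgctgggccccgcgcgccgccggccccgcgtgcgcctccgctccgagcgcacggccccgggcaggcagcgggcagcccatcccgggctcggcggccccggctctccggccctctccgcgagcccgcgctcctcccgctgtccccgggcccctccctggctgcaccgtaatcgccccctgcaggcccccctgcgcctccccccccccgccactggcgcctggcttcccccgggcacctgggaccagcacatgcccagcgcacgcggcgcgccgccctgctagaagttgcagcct
SOX2: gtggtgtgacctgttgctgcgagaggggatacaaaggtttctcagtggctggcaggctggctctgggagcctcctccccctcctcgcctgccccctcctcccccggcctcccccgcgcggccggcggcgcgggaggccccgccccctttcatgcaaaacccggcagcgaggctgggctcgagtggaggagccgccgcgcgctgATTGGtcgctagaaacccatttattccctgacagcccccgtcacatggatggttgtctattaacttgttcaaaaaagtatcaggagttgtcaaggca
SOX3: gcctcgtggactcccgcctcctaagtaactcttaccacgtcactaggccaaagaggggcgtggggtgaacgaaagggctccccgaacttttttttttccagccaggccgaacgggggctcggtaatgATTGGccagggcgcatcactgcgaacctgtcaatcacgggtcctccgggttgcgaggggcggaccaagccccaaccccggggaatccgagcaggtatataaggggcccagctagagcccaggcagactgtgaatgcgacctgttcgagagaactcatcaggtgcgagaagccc
SOX4: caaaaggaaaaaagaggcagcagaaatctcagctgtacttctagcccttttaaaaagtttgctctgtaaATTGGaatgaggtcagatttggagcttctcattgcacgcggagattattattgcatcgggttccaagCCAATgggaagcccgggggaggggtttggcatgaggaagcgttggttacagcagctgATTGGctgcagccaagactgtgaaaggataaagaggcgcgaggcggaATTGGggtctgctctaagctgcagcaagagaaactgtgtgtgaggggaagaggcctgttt
These windows lie at chr13:112066899-112067198 (SOX1), chr3:181711675-181711974 (SOX2), chrX:140505020-140505319 (SOX3, minus strand) and chr6:21593501-21593800 (SOX4) of GRCh38.p14, with the plus strand for the genes named without one. The CCAAT letters were present 1 time each in SOX2, SOX3, SOX12 and SOX21, 4 times in SOX4 and not in SOX1 or SOX5. Of all 27305 promoters of this length, 35.7% held the letters on either strand. A second search, for ACAAT or ATTGT, letters that lie within many SOX binding sites, found them 2 times in SOX5 and in none of the other 6 promoters, against 28% of all promoters. These matches describe the letters of the windows only. GC content of the printed windows was 80% in SOX1, 63.3% in SOX2, 60.3% in SOX3 and 49.3% in SOX4.

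Libraries held between 10334908 and 19836878 counts. CPM are the counts scaled to library size, and on these raw totals a floor of 3 counts is between 0.151 and 0.290 CPM. The CPM of genes use TMM library sizes, on which the floor differs somewhat, with 0.278 in place of 0.242 CPM in D70 TMG replicate 2. The defining stem cell genes POU5F1 and NANOG were high on D0 and at or below 9.13 CPM from D12 on, and PAX6, the neural progenitor factor, was high from D12 on in every library except D70 TMG replicate 2. In that library PAX6 was at 2.50 CPM, against 587 CPM in D70 TMG replicate 1. Summed over 10 mesenchyme genes (collagens, DCN, LUM and the like), 3 libraries stood apart from the other 5 of D30 and D70, namely replicate 2 of D30 TMG, D70 control and D70 TMG, with 30640 to 61770 CPM against 3871 to 7605 CPM. In D70 TMG replicate 2, 10 early neuron genes summed to 232 CPM, and in the other D30 and D70 libraries to between 578 and 1341 CPM. A tag for treatment reads control in every replicate 1 and TMG in every replicate 2, so that it contradicts the title in 8 libraries, D0 control replicate 2 and D0 TMG replicate 1 among them. Groups follow the titles, whose arm the column names of the count table share. Following the tag would set replicate 1 against replicate 2, so the direction and size of every TMG difference rest on the titles.

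**Figure D1:**
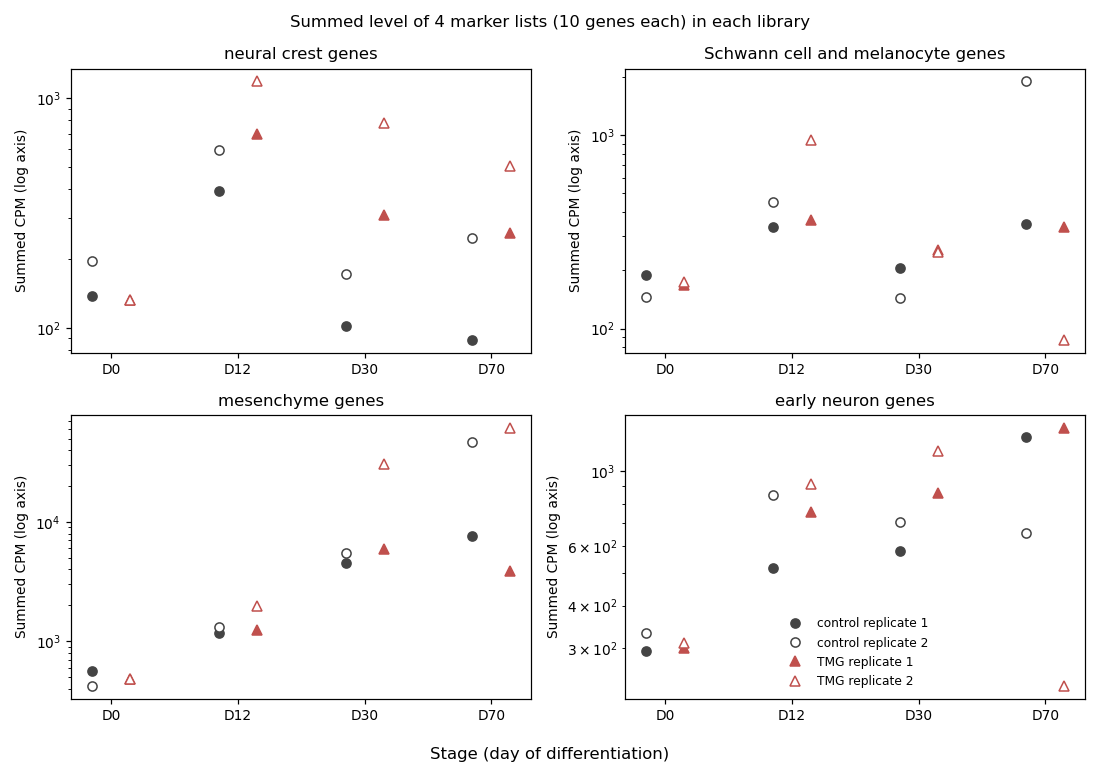
Summed CPM of 4 lists of 10 marker genes each (log axis) in every library by stage, with circles for control, triangles for TMG, filled symbols for replicate 1 and open symbols for replicate 2. Neural crest genes were highest in D12 TMG replicate 2 (1181 CPM), and mesenchyme genes were highest in D30 TMG replicate 2 and in replicate 2 of each arm on D70.

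SOX2, the progenitor factor with the highest count of its group, was highest in undifferentiated cells and lower at every later stage, in both arms. It is a gene of 1 exon at chr3:181429713-181432224 (GRCh37, plus strand, ENSG00000181449), inside an intron of the long non-coding gene SOX2-OT, with which it shares no exon bases. The 4 libraries of D0 held between 189.9 and 261 CPM of SOX2 and the other 12 between 22.7 and 157 CPM, so that no later library reached the D0 level. The share of all genes with a stage set apart from the others in this way was not counted. The same holds for SOX3, SOX4 and SOX10 below. In control cells SOX2 stood at 189.9 and 261 CPM on D0, at 109 and 90.9 CPM on D12, at 124 and 157 CPM on D30 and at 112 and 50.7 CPM on D70. Between D12 and D30 the control libraries did not overlap, with D30 higher, as for 28% of all genes, and the difference did not pass (0.49, SE 0.45, adjusted p = 0.578 by edgeR). The D70 control libraries spread more than 2-fold. With TMG it stood at 216 and 198 CPM on D0, 81.1 and 61.8 CPM on D12, 69.3 and 38.0 CPM on D30 and 52.7 and 22.7 CPM on D70. The TMG means were therefore lower at each stage in turn, although of neighbouring stages only D0 and D12 did not overlap. SOX2 was lower on D70 than on D0 by a log2 fold change of -1.47 in control cells (SE 0.45, adjusted p = 0.0323) and of -2.46 in TMG-treated cells (SE 0.47, adjusted p = 0.00369 by edgeR). The TMG decline also passed on D12 (-1.53, SE 0.45, adjusted p = 0.0426) and on D30 (-1.95, SE 0.46, adjusted p = 0.0112). In control cells the D12 and D30 differences from D0 were -1.17 (SE 0.45, adjusted p = 0.0994) and -0.68 (SE 0.45, adjusted p = 0.269) by edgeR. That the TMG decline to D30 was the steeper was not shown, since the difference of the 2 declines was -1.27 (SE 0.63, adjusted p = 0.976 by edgeR, where 4.94% of all genes had an unadjusted p under 0.05). The TMG difference of D70 from D0 held with each library left out in turn (adjusted p up to 0.0205), whereas the control one was lost without D0 control replicate 1 or 2, D0 TMG replicate 2 or D70 control replicate 2 (log2 fold change -1.66 to -1.001). The TMG call on D30 was lost without D0 TMG replicate 1 (-1.89) or D30 TMG replicate 2 (-1.58), and the one on D12 in 10 of the 16 fits with a library left out (-1.75 to -1.35). Leaving out the 3 libraries high in mesenchyme genes was a choice made after seeing the data. The control declines of SOX2 from D0 were then -1.16, -0.64 and -0.98 on D12, D30 and D70, and the TMG ones -1.54, -1.60 and -1.95. In bulk RNA, fewer cells of a type and less RNA per cell cannot be told apart.

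SOX3, the X-linked member of the same group, had its highest stage means on D12 and its lowest on D70. It is a gene of 1 exon at chrX:139585150-139587234 (GRCh37, minus strand, ENSG00000134595). Control libraries held 14.8 and 54.6 CPM on D0, 162 and 72.9 CPM on D12, 85.2 and 80.5 CPM on D30 and 13.4 and 7.57 CPM on D70. TMG libraries held 20.1 and 20.5 CPM on D0, 95.1 and 29.8 CPM on D12, 60.7 and 21.3 CPM on D30 and 12.8 and 0.278 CPM on D70. All 4 libraries of D70 lay below the other 12, and the lowest of them was D70 TMG replicate 2, the library with next to no PAX6. Its 0.278 CPM of SOX3 is 3 counts, a value at the floor, which enters the TMG differences of D70 below. Replicates differed widely, from 14.8 to 54.6 CPM within D0 control alone, and no stage pair passed the threshold for SOX3. The difference of D70 from D12 was -3.48 in control cells (SE 1.16, adjusted p = 0.0793 by edgeR) and -3.24 in TMG-treated cells (SE 1.16, adjusted p = 0.126 by edgeR). From D0 to D12 the control level differed by 1.76 (SE 1.08, adjusted p = 0.291 by edgeR). With DESeq2 both differences of D70 from D12 passed (adjusted p = 0.00865 and 0.022), and without the 3 libraries high in mesenchyme genes the control one did (-3.10, adjusted p = 0.0429 by edgeR).

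SOX1, the third SOXB1 gene and a usual mark of neural plate cells, was near 0 throughout. Its single exon lies at chr13:112721463-112726020 (GRCh37, plus strand, ENSG00000182968). It had 22 counts over all 16 libraries, at most 6 in a library and none in 9 of them. The highest value was 0.376 CPM, in D30 control replicate 1. All 4 libraries of D70 were at 0, which at 3 counts a library allows up to 0.278 CPM. These are the values as counted, and they do not show that the gene is not expressed. SOX21, at chr13:95361876-95364799 (GRCh37, minus strand, ENSG00000125285), had 7 counts in all, at most 2 in a library. Any difference between stages or arms in these 2 genes was not detectable at this depth. Whether mapping or counting plays a part in the low counts of SOX1 and SOX21 was not tested. The long non-coding gene SOX21-AS1, which runs opposite to SOX21 without sharing exon bases, had 1204 counts and between 1.05 and 12.4 CPM. SOX1-OT, beside SOX1, had 81 counts.

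**Figure D2:**
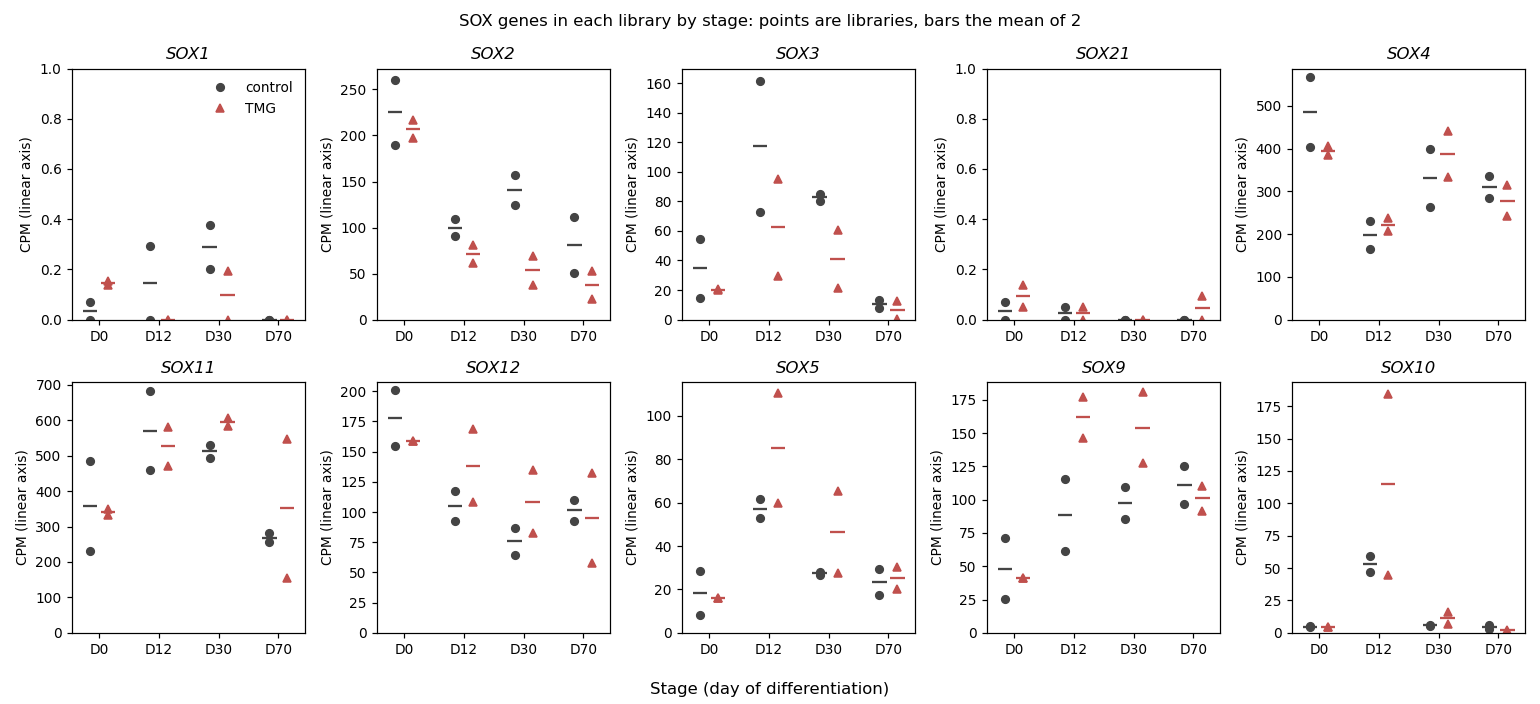
CPM of the 10 SOX genes (linear axes from 0, scaled per gene) in each library by stage, with circles for control, triangles for TMG and a bar for the mean of 2. SOX2 lay above 189 CPM on D0 only, SOX10 above 44 CPM on D12 only, and SOX1 and SOX21 stayed below 0.4 CPM in every library.

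The SOXC genes were abundant at every stage. SOX4, which has 1 exon at chr6:21593982-21598850 (GRCh37, plus strand, ENSG00000124766) and 3.45% of its bases opposite a non-coding gene outside the count table, had its highest stage means on D0 and its lowest on D12. With TMG the D0 and D30 libraries overlapped, with means of 395 and 388 CPM. Control libraries held 403 and 567 CPM of SOX4 on D0, 230.0 and 165 CPM on D12, 265 and 399 CPM on D30 and 336 and 284 CPM on D70. The TMG libraries held 405 and 385 CPM on D0, 207 and 238 CPM on D12, 335 and 442 CPM on D30 and 314 and 241 CPM on D70. The 4 libraries of D12 (165 to 238 CPM) lay below all other 12 (241 to 567 CPM), if narrowly, in control and TMG-treated cells alike. The share of all genes set apart in this way was not counted. The D12 level was lower than the D0 level by -1.30 in control cells (SE 0.27, adjusted p = 0.011 by edgeR), a call lost without D0 control replicate 2 (-1.03) or D12 control replicate 2 (-1.08). In TMG-treated cells the same difference was -0.83 (SE 0.27, adjusted p = 0.0597 by edgeR), and it passed with DESeq2 (-0.83) and without the 3 libraries high in mesenchyme genes (-0.83). The control means of SOX4 on D30 and D70 were 331.7 and 310.0 CPM, against 485 CPM in undifferentiated cells.

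SOX11, at chr2:5832516-5841517 (GRCh37, plus strand, ENSG00000176887), had the most counts of the 10 genes and its highest levels on D12 and D30. Control libraries held 232 and 485 CPM on D0, 682 and 460 CPM on D12, 494 and 530.3 CPM on D30 and 281 and 257 CPM on D70. TMG libraries held 349 and 332 CPM on D0, 582 and 471 CPM on D12, 606 and 584 CPM on D30 and 547 and 156 CPM on D70. No stage pair of SOX11 passed, and the nearest was the control difference of D70 from D12, at -1.09 (SE 0.49, adjusted p = 0.166 by edgeR). The D70 TMG replicate 2 library again held the lowest value, beside its low sum of early neuron genes. Whether the cell makeup of that library bears on SOX11 was not tested. SOX12, at chr20:306196-310868 (GRCh37, plus strand, ENSG00000177732), had its highest stage means on D0 in both arms, although D12 TMG replicate 2 (169 CPM) lay above both D0 TMG libraries. Control libraries held 155 and 201 CPM on D0, 92.3 and 117 CPM on D12, 64.6 and 86.7 CPM on D30 and 109.8 and 92.9 CPM on D70. TMG libraries held 158 and 159 CPM on D0, 108 and 169 CPM on D12, 82.5 and 135 CPM on D30 and 132 and 58.1 CPM on D70. The control level on D30 lay below that on D0 by -1.23 (SE 0.38, adjusted p = 0.0319 by edgeR), which 6 of the 16 fits with a library left out lost (-1.46 to -1.03). In TMG-treated cells no stage pair of SOX12 passed, and D70 differed from D0 by -0.74 (SE 0.38, adjusted p = 0.165 by edgeR), while D30 passed without the 3 libraries high in mesenchyme genes (-0.96, adjusted p = 0.0405 by edgeR).

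SOX10, the crest and glial factor, rose on D12 and was low again by D30, with the largest stage differences among the 8 tested genes. It lies at chr22:38366693-38383429 (GRCh37, minus strand, ENSG00000100146), and 5.39% of its exon bases are shared with POLR2F on the opposite strand, whose reads cannot be told apart from its own without strand. Control libraries held 5.38 and 4.13 CPM of SOX10 on D0, 47.1 and 59.2 CPM on D12, 5.92 and 5.52 CPM on D30 and 2.76 and 6.20 CPM on D70. TMG libraries held 4.67 and 4.74 CPM on D0, 44.7 and 185 CPM on D12, 6.51 and 15.9 CPM on D30 and 2.37 and 1.30 CPM on D70. The 4 libraries of D12 (44.7 to 185 CPM) thus lay above the other 12 (1.30 to 15.9 CPM), and D12 TMG replicate 2 stood far above the rest. SOX10 was higher on D12 than on D0 by 3.48 in control cells (SE 0.67, adjusted p = 0.00763 by edgeR) and by 4.61 in TMG-treated cells (SE 0.70, adjusted p = 0.00281 by edgeR). By D30 it had fallen by 3.22 in control cells (SE 0.66, adjusted p = 0.0282 by edgeR), and in TMG-treated cells the difference was -3.35 (SE 0.66, adjusted p = 0.0586 by edgeR). The latter passed with DESeq2 (adjusted p = 2.49e-05) and without the 3 libraries high in mesenchyme genes (-4.15, adjusted p = 0.027 by edgeR). From D12 to D70 it fell by 3.57 in control cells (SE 0.67, adjusted p = 0.0104 by edgeR) and by 5.95 in TMG-treated cells (SE 0.76, adjusted p = 0.00485 by edgeR). Both TMG calls, D12 over D0 and D70 under D12, held with each of the 16 libraries left out (adjusted p up to 0.0427 and 0.0323), with values of 3.24 to 5.29 and -6.64 to -4.60. The control rise was lost without D0 control replicate 1 (3.71) or replicate 2 (3.30), the control fall to D70 without D12 control replicate 1 or 2 or D70 control replicate 1 (-3.73 to -3.10), and the control fall to D30 in 6 of the 16 fits (-3.35 to -3.04).

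Other crest genes were measured beside SOX10, as a list of 10 (TFAP2A, TFAP2B, FOXD3, PAX3, SNAI2, ERBB3, NGFR, MSX1, MSX2 and TWIST1). Their summed level was 394 and 592 CPM in the D12 control libraries and 698 and 1181 CPM in the D12 TMG libraries, against 132 to 195.4 CPM on D0. On D12 over D0, 3 of the 10 passed as higher in control cells (PAX3, MSX1, MSX2), as did 6.97% of all genes, and 4 in TMG-treated cells (the same 3 and TFAP2A), as did 7.24% of all genes, and none as lower. The sum stayed up on D30 in TMG-treated cells (310 and 780.0 CPM against 102 and 172 CPM in control cells), while SOX10 stood at 6.51 and 15.9 CPM there. The library at 780.0 CPM is D30 TMG replicate 2, which held 30640 CPM of mesenchyme genes, a list that shares TWIST1 with the crest list. Of 10 genes of the oligodendrocyte lineage, where SOX10 also acts, the defining factors OLIG2 and NKX2-2 and the myelin genes MOG and MAG stayed at or below 0.56 CPM in every library. The whole list summed to 129 to 146 CPM on D0, 162 to 196 CPM on D12 and 329 to 534 CPM on D70, with PDGFRA and CSPG4, which mesenchyme and pericytes also express, as the 2 called higher on D70 than on D0 with TMG, as were 14.9% of all genes.

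SOX9, at chr17:70117161-70122557 (GRCh37, plus strand, ENSG00000125398), was higher after D0, a rise that passed in TMG-treated cells. Control libraries held 25.3 and 71.3 CPM on D0, 61.7 and 115 CPM on D12, 85.2 and 109.8 CPM on D30 and 125 and 96.7 CPM on D70. TMG libraries held 41.2 and 41.0 CPM on D0, 147 and 177 CPM on D12, 127 and 181 CPM on D30 and 91.7 and 110.2 CPM on D70. With TMG the stage differences from D0 passed on D12 (1.98, SE 0.44, adjusted p = 0.0136 by edgeR), on D30 (1.91, SE 0.44, adjusted p = 0.00994 by edgeR) and on D70 (1.30, SE 0.43, adjusted p = 0.0449 by edgeR). In control cells they were 0.87, 1.01 and 1.201, with adjusted p of 0.188, 0.0962 and 0.0574 by edgeR. With DESeq2 the control difference on D70 passed (adjusted p = 0.0266), and those on D12 and D30 did not (0.167 and 0.0631). The rises in the 2 arms were not shown to differ (1.10, 0.89 and 0.095 higher with TMG, adjusted p of 1, 0.978 and 1 by edgeR). D0 control replicate 2, at 71.3 CPM, held nearly 3 times the SOX9 of replicate 1, and without it the control differences were 1.81, 1.95 and 2.13 and all passed. The TMG call on D70 was lost in 11 of the 16 fits with a library left out (1.16 to 1.41) and without the 3 libraries high in mesenchyme genes (1.18). The call on D12 was lost without either library of D0 TMG or D12 TMG (1.83 to 2.10), and the one on D30 without either library of D0 TMG or D30 TMG replicate 2 (1.63 to 1.91). Cartilage genes (COL2A1, ACAN and 8 others) summed to 4509 CPM in D70 TMG replicate 2, against 440 to 706 CPM in the other 3 libraries of D70, while SOX9 was 110.2 CPM in that library and 91.7 to 125 CPM in the others. GFAP, an astrocyte protein, reached 56.7 CPM in D70 TMG replicate 1 and stayed at or below 4.02 CPM in the other 15 libraries. The 10 astroglia genes with it summed to 1139 and 1044 CPM in D70 control and 1437 and 1315 CPM in D70 TMG libraries, against 443 to 682 CPM on D0.

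SOX5, at chr12:23682438-24715478 (GRCh37, minus strand, ENSG00000134532), had, like SOX10, its highest stage means on D12. Control libraries held 8.16 and 28.3 CPM on D0, 52.7 and 61.5 CPM on D12, 26.5 and 28.3 CPM on D30 and 29.4 and 17.2 CPM on D70. TMG libraries held 16.2 and 16.2 CPM on D0, 59.8 and 111 CPM on D12, 27.4 and 65.4 CPM on D30 and 30.5 and 19.98 CPM on D70. The TMG level on D12 was higher than on D0 by 2.39 (SE 0.58, adjusted p = 0.0196 by edgeR), a call lost without D0 TMG replicate 1 or 2 (2.40 and 2.39) or D12 TMG replicate 2 (1.88). The control difference was 1.65 (SE 0.57, adjusted p = 0.0713 by edgeR). It passed without D0 control replicate 2 (2.81), without the 3 libraries high in mesenchyme genes (1.67) and with DESeq2 (1.64).

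**Figure D3:**
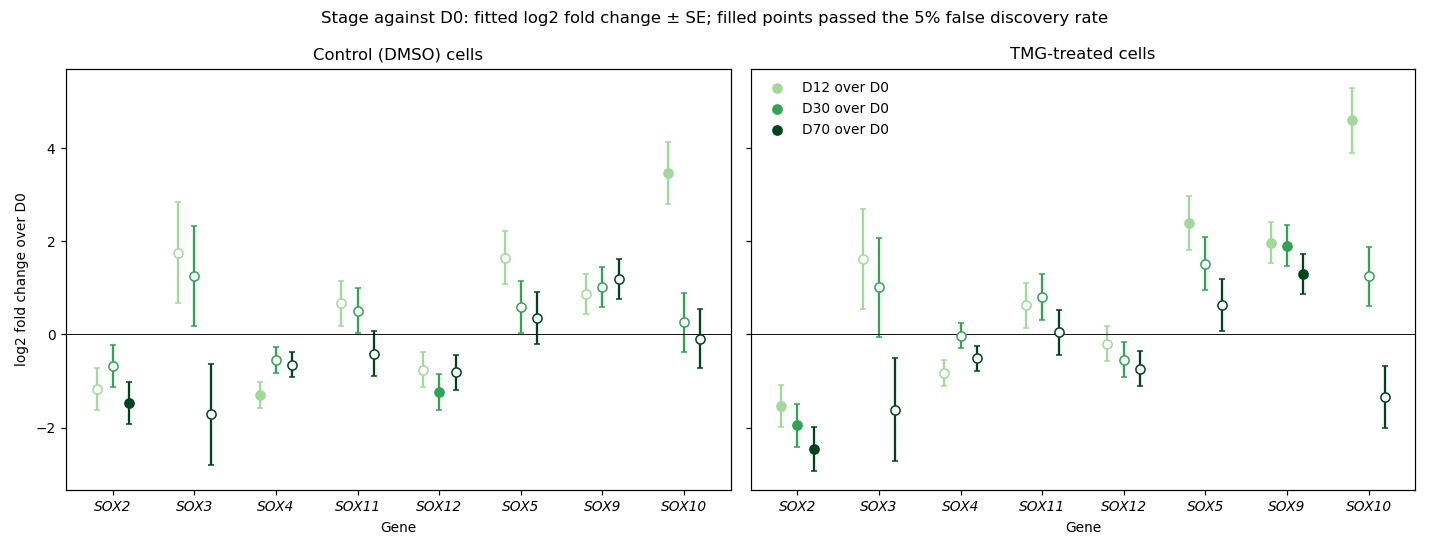
Log2 fold change of D12, D30 and D70 over D0 for the 8 tested SOX genes, with SE bars, in control cells (left) and TMG-treated cells (right). Filled points passed the 5% false discovery rate by edgeR: 4 in control cells and 8 in TMG-treated cells, and SOX10 on D12 had the highest value in each panel.

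Over all 6 pairs of stages, members passed the threshold 6 times in control cells (1 higher and 5 lower, in 4 genes) and 9 times in TMG-treated cells (5 higher and 4 lower, in 4 genes), out of 48 tests each. In control cells 2 of the 8 members passed on D12 against D0, where 16.7% of all 24249 tested genes did. It was 1 on D30 against D0 (30.6% of all genes), 1 on D70 against D0 (29.8%), 1 on D30 against D12 (3.6%), 1 on D70 against D12 (11.1%) and 0 on D70 against D30 (0.384%). In TMG-treated cells 4 passed on D12 against D0 (16.4% of all genes), 2 on D30 against D0 (27.7%), 2 on D70 against D0 (29%), 0 on D30 against D12 (0.511%), 1 on D70 against D12 (5.15%) and 0 on D70 against D30 (0.00825%). With 8 genes these counts are too small to set the members apart from genes at large. With each library left out in turn, 3 of these 15 calls held in all 16 fits and 12 were lost in at least 1, and the number of calls ranged from 3 (without D0 TMG replicate 1) to 15 (without D70 TMG replicate 1) in TMG-treated cells. Without the 3 libraries high in mesenchyme genes the number of calls changed too, as given below with the shares of all genes.

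Per kilobase of exon, levels of different members can be set side by side within a group. On D0 in control cells SOX4 (99.6 CPM per kb) and SOX2 (89.7) came first and overlapped, SOX11 (39.8) and SOX12 (38.0) followed and overlapped, then SOX3 (16.6) and SOX9 (12.3), which overlapped, and SOX5 (1.62) and SOX10 (0.985) came last and overlapped. By the length of the longest transcript in place of all exons, an alternative chosen after seeing the data, SOX5 stood at 2.58 and SOX10 at 1.37 CPM per kb. On D12 in control cells SOX11 led (63.4 CPM per kb), ahead of SOX3 (56.3), SOX4 (40.6) and SOX2 (39.8), each of which overlapped with the next. SOX10 reached 11.01 CPM per kb on that day and stood above SOX5 (5.06). On D70 in control cells SOX4 (63.7 CPM per kb) lay apart from SOX2 (32.3), SOX11 (29.9) and SOX9 (28.2), which overlapped in that order. With TMG on D70, SOX2 ranked below SOX4 (57.0 CPM per kb), SOX11 (39.0), SOX9 (25.7) and SOX12 (20.4), each of which overlapped with the next, SOX12 with SOX2 included.

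TMG against control was compared at each stage, to ask whether a raised O-GlcNAc level moves these factors. None of the 32 tests on members passed, with 2 at an unadjusted p under 0.05, both for SOX2. By edgeR no gene of the 24249 passed at any stage (0% on D0, D12, D30 and D70), and at an unadjusted p under 0.05 there were 1.26%, 2.48%, 12% and 5.49% of all genes on D0, D12, D30 and D70. DESeq2 called none of the members at any of the 4 stages either, although over all genes it called some at each stage (5, 11, 597 and 55). Over the mean of the 4 stages, 1 gene passed (0.00412% of all genes), which was not a SOX gene.

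SOX2 was the member with the clearest difference. Its TMG libraries lay below the control libraries without overlap on D12 and on D30, as did 16.5% and 21% of all genes, and on D70 TMG replicate 1 (52.7 CPM) slightly passed control replicate 2 (50.7 CPM). The log2 fold changes were -0.12 on D0 (SE 0.44), -0.49 on D12 (SE 0.45), -1.39 on D30 (SE 0.45, adjusted p = 0.276 by edgeR) and -1.11 on D70 (SE 0.45, adjusted p = 0.894 by edgeR). With a library left out the D30 value ran from -1.89 to -1.02 and the D70 value from -1.85 to -0.42. Averaged over the stages the change was -0.78 (SE 0.22, adjusted p = 0.233 by edgeR). DESeq2 gave -0.77 with an adjusted p of 0.042, and edgeR with a library left out gave -0.96 to -0.60, of which only the fit without D70 TMG replicate 1 (-0.96) passed. On D30 without the 3 libraries high in mesenchyme genes the difference was -1.06, with an adjusted p of 0.221 by edgeR. The D30 TMG replicate that held less SOX2 (38.0 CPM) was the one with 30640 CPM of mesenchyme genes, and the same was true of replicate 2 of each arm on D70. Their part in the SOX2 difference was otherwise not tested. SOX3 had -0.77, -0.91, -1.02 and -0.67 on D0, D12, D30 and D70, with SEs of 1.06 to 1.10. The sign turned on D0 without D0 control replicate 2 (0.46) and on D70 without D70 TMG replicate 2 (0.28), and without the 3 libraries high in mesenchyme genes D30 and D70 had -0.49 and -0.07. Its mean change was -0.84 (SE 0.54, adjusted p = 0.567 by edgeR). On D30 its TMG libraries also lay below the control libraries without overlap. The study itself picked SOX2 and SOX3 from these libraries as lower with TMG, so their direction here is not independent evidence.

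**Figure D4:**
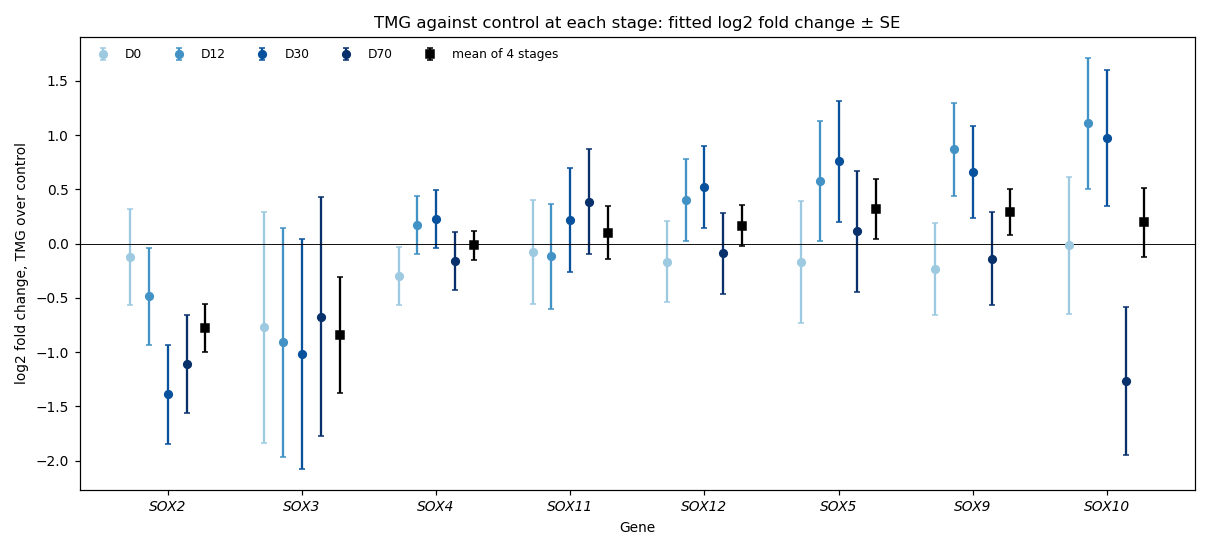
Log2 fold change of TMG over control, with SE bars, for the 8 tested SOX genes on D0, D12, D30 and D70 and for the mean of the 4 stages (squares). SOX2 reached -1.39 on D30. SOX3 lay below 0 at all 4 stages, on D0 and D70 with a sign that turned with 1 library left out. The mean change of the other 6 genes was between -0.01 and 0.32. Their values at single stages ran from -1.27 (SOX10 on D70) to 1.11 (SOX10 on D12). No value passed the threshold by edgeR.

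The neuronal members and SOX12 had stage differences of both signs, none of which passed. On D0, D12, D30 and D70 SOX4 had -0.30, 0.17, 0.23 and -0.16 (SE 0.27 each). SOX12 had -0.16, 0.40, 0.52 and -0.09 (SE 0.38 each), and SOX11 had -0.08 on D0 and -0.12 on D12 (SE 0.48 each). The mean changes were -0.01 (SE 0.13) for SOX4, 0.10 (SE 0.24) for SOX11 and 0.17 (SE 0.19) for SOX12. A small mean of values of both signs does not show that the arms were alike. On D30 the 2 TMG libraries of SOX11 lay just above the control ones (0.22, SE 0.48), and on D70 its fold change of 0.39 (SE 0.48) was -0.79 without D70 TMG replicate 1 and 0.96 without the 3 libraries high in mesenchyme genes. Among crest and glial members, SOX9 was higher with TMG on D12 and D30 without overlap, as were 17.8% and 23.1% of all genes, by 0.87 (SE 0.43, adjusted p = 1 by edgeR) and 0.66 (SE 0.43, adjusted p = 0.583 by edgeR). With a library left out these ran from 0.48 to 1.39 and from 0.38 to 0.89, and the D30 value was 0.35 without the 3 libraries high in mesenchyme genes. SOX5 had 0.58 on D12 (SE 0.55), or 0.06 to 0.95 with a library left out, and 0.76 on D30 (SE 0.56), or -0.04 without the 3 libraries high in mesenchyme genes. The SOX10 difference on D12, 1.11 (SE 0.60, adjusted p = 1 by edgeR), was -0.26 without D12 TMG replicate 2. On D30 SOX10 had 0.97 (SE 0.63), and 0.15 without the 3 libraries high in mesenchyme genes. On D70 it had -1.27 (SE 0.68, adjusted p = 0.909 by edgeR), with TMG libraries below control without overlap, as were 12.4% of all genes, and no member lay above control without overlap on that day (9.77% of all genes). The D70 value of SOX10 was -0.22 without the same 3 libraries. Neural crest genes as a list had positive fold changes with TMG in 10 of 10 on D12 and on D30, with medians of 1.23 and 2.54 against 0.00 and 0.01 over all genes tested, and none of the 10 passed. As the list was chosen with earlier results of these data known, this count is not independent evidence. On D12 the crest sum was 698 and 1181 CPM in TMG replicates 1 and 2, against 394 and 592 CPM in control. The part of D12 TMG replicate 2 in the D12 median was not tested. The D30 TMG library with the higher crest sum, replicate 2, is also high in mesenchyme genes, and their part in the D30 median was not tested. No difference of the TMG effect between 2 stages passed in a member (48 tests, 2 at an unadjusted p under 0.05). The largest were those of SOX10 between D70 and D12 (-2.38, SE 0.91) and between D70 and D30 (-2.24, SE 0.92), each with an adjusted p of 1 by edgeR, and at an unadjusted p under 0.05 there were 2.41% and 4.03% of all genes in these comparisons. Without the 3 libraries high in mesenchyme genes they were -1.33 and -0.37. Among the other pairs of stages, this share was 1.07% (D12 and D0), 3.41% (D30 and D12) and 2.19% (D70 and D0), with no member in it.

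Of 9 further SOX genes, 7 passed the filter. They gave 6 calls in 42 comparisons between stages in control cells and 7 in 42 with TMG, a share near that over all genes (15.4% and 13.1%), and the calls fell on 3 of the genes. SOX6, a SOXD partner of SOX5, rose in control cells from 2.84 and 10.2 CPM on D0 to 35.8 and 24.2 CPM on D12 and 103 and 88.9 CPM on D30. The D30 rise was 3.88 (SE 0.59, adjusted p = 0.0011 by edgeR), and it was 3.43 with TMG (SE 0.58, adjusted p = 0.00222 by edgeR). SOX13, the third SOXD gene, fell in the same cells from 157 and 152 CPM on D0 to 39.1 and 11.4 CPM on D70 (-2.61, SE 0.44, adjusted p = 0.00182 by edgeR). The 3 SOXD genes thus followed different courses, with SOX5 highest on D12, SOX6 on D30 and SOX13 on D0 by their control means. SOX7, an endothelial factor, was higher on D70 than on D0 with TMG (2.30, SE 0.71, adjusted p = 0.0329 by edgeR), at 2.21 and 14.9 CPM against 1.65 and 1.80 CPM, so that the difference rests on D70 TMG replicate 2, and 39.4% of its exon bases are shared with PINX1. SOX8, the close relative of SOX9 and SOX10, stood between 6.88 and 64.2 CPM and no stage pair passed. SOX15 stood between 1.09 and 7.21 CPM, SOX18 at or below 1.57 CPM and SOX30 at or below 1.29 CPM, and no stage pair passed for these 3. None of the 7 genes passed with TMG against control at any stage (28 tests, 2 at an unadjusted p under 0.05).

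Partners of SOX2 were counted from a list of 7 (POU5F1, POU3F1, POU3F2, POU3F3, POU3F4, PAX6 and CHD7). POU5F1, its partner in stem cells, fell from 825 and 893 CPM on D0 to 0.54 and 0.77 CPM on D12 in control cells, over the same days in which SOX2 went to 109 and 90.9 CPM. PAX6, its partner in neural progenitors, rose from 3.96 and 14.6 CPM to 574 and 585 CPM. On D12 against D0, 1 of the 7 passed as higher (6.97% of all genes in control cells and 7.24% with TMG) and 1 as lower (9.71% and 9.19%) in each arm. On D30 in control cells 2 passed as higher (14% of all genes) and 3 as lower (16.7%). None of the 7 passed with TMG against control.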

How the data were processed

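RNA was sequenced from 16 libraries of H9 cells after rRNA depletion. Per the submitters' notes, alignment was by bowtie2 against hg19. The authors deposited, for each Ensembl gene of GRCh37, the estimated counts of RSEM v1.2.12 as whole numbers without normalization. The kit is not stated to keep strand. Gene positions are from a GENCODE annotation of GRCh37 and promoters from RefSeq.

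Counts were fitted with edgeR 4.0.16 (R 4.3.3) as 8 group means over all 16 libraries, with TMM scaling, filterByExpr (minimum count 10, minimum total 15), which kept 24249 genes, robust quasi-likelihood F-tests, and Benjamini-Hochberg adjustment per comparison over all genes tested at a false discovery rate of 5%. Estimates came as whole numbers, so no rounding was needed. The fit has 8 residual degrees of freedom, SEs come from the fold change and its F statistic, and fold changes are log2. CPM use TMM library sizes. Scripts were tested on simulated data. Comparisons of the TMG effect between D30 or D70 and D0, and between D70 and D12, were added after seeing the data. Alternatives were DESeq2 1.42.0, RLE scaling, no filter, a replicate block, fits of a stage or an arm alone, raw totals, each library left out and, added later, 3 libraries left out. Named genes are the 10 members, other SOX genes, list genes that passed or that serve as markers, and the 3 genes most like 5 of the members, of which 1 is not reported here. Members and lists were chosen with earlier results of these data known. Precision is limited by 2 libraries a group.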

Additional observations from a re-analysis of the deposited data

How the results depend on the processing

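With TMG against control at each stage no member passed under any alternative, and with RLE scaling every count was that of TMM. For the mean TMG effect 1 member passed with DESeq2 (SOX2), which called 514 of all genes (2.12%), and between 0 and 1 with a library left out, 1 only without D70 TMG replicate 1. The 6 calls between stages in control cells became 3 with no filter on low counts, 10 with DESeq2 and 11 without the 3 libraries high in mesenchyme genes, while the share of all genes called went from 15.4% to 21.5% with DESeq2 and 27.6% without those libraries. They ranged from 3 to 9 with a library left out (3 without D0 control replicate 1, D0 TMG replicate 2 or D12 control replicate 2). The 9 calls in TMG-treated cells became 15 with DESeq2, 6 with no filter and 11 without those 3 libraries, with 13.1%, 18% and 20.1% of all genes called with edgeR, with DESeq2 and without those libraries, and ranged from 3 to 15 with a library left out, with 3 without D0 TMG replicate 1, 4 without D0 TMG replicate 2, 5 without D12 TMG replicate 2 and 15 without D70 TMG replicate 1. The cause was not tested. Fits of 1 arm alone gave 8 calls in each arm. For these fits and for the fit with no filter, the share of all genes called was not counted. Their calls of members can therefore not be set against genes at large. Of 40 TMG effects of members (4 stages and the mean), 21 turned sign with at least 1 library left out. On D0 these were SOX2 (-0.30 to 0.13), SOX3 (-1.40 to 0.46), SOX5 (-0.78 to 0.99), SOX9 (-0.77 to 0.71), SOX11 (-0.48 to 0.56) and SOX12 (-0.31 to 0.041), each without D0 control replicate 2, and SOX10 (-0.19 to 0.22). On D12 they were SOX4 (-0.046 to 0.43), SOX10 (-0.26 to 1.80) and SOX11 (-0.37 to 0.19), and on D30 SOX4 (-0.044 to 0.56). On D70 they were SOX3 (-5.22 to 0.28), SOX4 (-0.37 to 0.022), SOX5 (-0.24 to 0.56), SOX9 (-0.30 to 0.063), SOX11 (-0.79 to 1.03) and SOX12 (-0.81 to 0.39). Means that turned were those of SOX4 (-0.082 to 0.068), SOX10 (-0.14 to 0.37), SOX11 (-0.19 to 0.26) and SOX12 (-0.013 to 0.29). Without the 3 libraries high in mesenchyme genes, SOX4 on D30 (-0.024), SOX5 on D30 (-0.037) and SOX12 on D70 (0.27) turned. Where a fit left a group with 1 library, that library was assumed to vary like the other groups. With raw library totals, 14 of 16 orders of stage means were unchanged.

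With the replicate number as a block, the calls were 8 in control cells, 10 in TMG-treated cells and 0 with TMG at any stage. The share of all genes called between stages was 16.3% in control cells and 13.7% in TMG-treated cells. With TMG against control, that fit called 233 of all genes on D30, 1 on D70 and 0 on D0 and D12. SOX9 on D30 and D70 in control cells (adjusted p = 0.0421 and 0.0213 by edgeR) and SOX10 on D30 against D12 with TMG (adjusted p = 0.0472 by edgeR) were then called, and on D0 the TMG effects of SOX5 (0.059) and SOX11 (0.019) turned sign. For SOX2 the TMG effect with the block had an adjusted p of 0.0608 on D30 and 0.0626 for the mean by edgeR. Differences between replicates 2 and 1 correlated between arms over genes with r of 0.05 in D0, 0.37 in D12, 0.22 in D30 and 0.61 in D70 libraries, so replicates deviated together at 3 stages and not on D0. As this did not hold at every stage and the labels name no shared source, the numbers were not used as pairs.

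With 2 libraries a group, SEs of the TMG effect at a stage ran from 0.27 for SOX4 to 1.10 for SOX3 on the log2 scale, and the counts of SOX1 and SOX21 were too low to test.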

Other observations

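Across the 16 libraries, which share stages and arms, the 28 pairs of tested members had a Pearson r of log2 CPM from -0.66 (SOX2 and SOX9) to 0.84 (SOX3 and SOX11). SOX5 went with SOX10 (0.78) and SOX9 (0.76). Within the groups named for progenitors, neurons and crest, SOX2 and SOX3 had 0.53, SOX4 and SOX11 -0.05 and SOX9 and SOX10 0.35. Genes close to SOX10 over the same 16 libraries were LINC01198 (r = 0.95) and OR7E101P (0.95). Those most like SOX9 were ARMCX6 (0.94), MSX2 (0.92), a homeobox gene of the crest list, and INTS6L (0.92). SOX2 was closest to THOC3 (0.96), POLRMT (0.96) and TRAPPC6A (0.95), SOX3 to GULP1 (0.96), PURG (0.94) and NUDT16 (0.94), and SOX11 to CNTFR-AS1 (0.90), LINC01783 (0.88) and WASF1 (0.88).

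The non-coding neighbours did not all follow their SOX gene. SOX2-OT, whose intron holds SOX2, stood at 2.72 and 3.36 CPM in D0 control libraries and at 13.4 and 27.1 CPM on D30, a rise of 2.74 (SE 0.70, adjusted p = 0.0138 by edgeR), while SOX2 itself differed by -0.68 (adjusted p = 0.269 by edgeR). On D70 it was 25.3 CPM in control replicate 1 and 4.91 CPM in replicate 2, the library high in mesenchyme genes. SOX9-AS1, opposite SOX9, rose from 1.30 and 1.89 CPM on D0 to 5.73 and 5.02 CPM on D30 in control cells (1.75, SE 0.37, adjusted p = 0.00586 by edgeR). With TMG it was 6.70 and 4.26 CPM on D30 and 2.77 and 1.85 CPM on D70.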
